A study of Homo sapiens with 12 samples.

Results

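The report describes 10 genes that build and anchor the keratin cytoskeleton of epithelial cells: the keratins KRT7, KRT8, KRT18, KRT19, KRT80 and KRT81 and the plakins DSP, PPL, EVPL and PLEC. They were taken by symbol from both gene tables and matched by gene identifier, which makes 10 of the 58503 genes that the tables share. RNA was sequenced from human prostate cancer cells labelled LNCaP, an androgen-sensitive line, and PC3, an androgen-independent line, each with a wild-type genotype label. The groups were LNCaP under erastin at 5 µmol/L, LNCaP under DMSO, PC3 under erastin at 5 µmol/L and PC3 under DMSO, with 3 libraries in each of the 4 groups. Erastin, an inducer of the iron-dependent cell death called ferroptosis, inhibits the cystine importer xc-, and DMSO is its solvent. The sources used here give no exposure time, and each line is a single established line. Nothing in the labels makes the replicates separate cultures, and the p-values then reflect only a spread between libraries that may be technical.

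Keratins assemble as obligate pairs of a type I chain and a type II chain into filaments that give epithelial cells mechanical strength. KRT18 and KRT19 are type I chains, and KRT7, KRT8, KRT80 and KRT81 are type II chains. KRT8 with KRT18 is the usual pair of simple epithelia, the luminal cells of the prostate among them, while KRT81 is classed as a hair keratin. Plakins are large linker proteins: DSP ties keratin filaments to desmosomes, PLEC ties them to hemidesmosomes and other cytoskeletal systems, and EVPL and PPL are partners first described in the cornified envelope of skin.

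Levels are FPKM, fragments scaled by gene length and by library depth, as deposited. Fold changes are erastin minus DMSO differences on the log2(FPKM + 1) scale with their standard error, which understates changes of low genes, and a gene was tested in a line if it reached 1 FPKM in at least 3 of 6 libraries. The LNCaP libraries held 14047979 to 17668554 recovered reads, and those labelled PC3 held 13709558 to 16350657. The 3 erastin libraries labelled PC3 had 30239 to 31311 genes above 0, against 25679 to 26144 in the 3 DMSO libraries. DMSO library 1 of PC3 stood apart from libraries 2 and 3 of its group, with a chi-square per degree of freedom of 57.9 and 86.7 against 7.33 between libraries 2 and 3. Replicate 3 of both LNCaP groups also stood apart, at 24.4 and 41.4 in the erastin group and 64.6 and 41.7 in the DMSO group.

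The line labels were checked against marker genes. The 6 LNCaP markers used, KLK3 and KLK2 among them, all reached 1 FPKM in LNCaP and summed to 360 to 366 FPKM under erastin, against 1023 to 1104 under DMSO. In the libraries labelled PC3, 3 of these 6 reached 1 FPKM and the list summed to 4.65 to 5.14 FPKM under erastin, against 9.56 to 11.3 under DMSO, with KLK3 and KLK2 near 0 and TMPRSS2 and STEAP2 the highest. There the 6 PC3 markers summed to 136 to 142 FPKM under erastin, against 741 to 817 under DMSO. CTNNA1 encodes alpha-catenin, and PC-3 is known to lack both copies of it; it was nevertheless present in the libraries labelled PC3, at 5.92 to 6.61 FPKM under erastin and 50.6 to 56.7 FPKM under DMSO, which goes against that label. Markers of other cell types were compared as list sums: in the libraries labelled PC3, none of 4 leukocyte markers reached 1 FPKM, 2 of 6 fibroblast markers did (summed 4.73 to 4.9 under erastin and 2.75 to 5.2 under DMSO), and 2 of 4 basal epithelial markers did (1.81 to 2.21 under erastin and 4.78 to 9.9 under DMSO). Of 4 endothelial markers, 2 reached 1 FPKM there (4.54 to 4.94 under erastin and 27.1 to 32.2 under DMSO), and of 4 neuroendocrine markers 2 did (9.2 to 10.7 under erastin and 19.3 to 28.3 under DMSO). The defining basal genes KRT5 and TP63 stayed below 1 FPKM in the libraries labelled PC3 and were listed at 0 in LNCaP. In LNCaP no basal, leukocyte or endothelial marker reached 1 FPKM, 1 fibroblast marker did (list sum 2.46 to 3.06 under erastin and 1.36 to 1.67 under DMSO), and 1 neuroendocrine marker did (12.2 to 13.2 under erastin and 6.44 to 7.96 under DMSO).

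All 10 genes were tested in the libraries labelled PC3, and all 10 fell under erastin, with erastin and DMSO libraries that did not overlap for any of them. The steepest falls were those of the simple epithelial chains KRT18, KRT8 and KRT19 and of the desmosomal plakin DSP, which lay 11.9-fold to 26.2-fold lower on the linear scale. The median log2 fold change of the 10 was -1.72, beside 0.0 for all genes tested. The 10 genes, and the lists given below, were chosen with earlier results of these data known. Their counts beside the shares of all genes are therefore a description. The background in this line is wide: 66.4% of all genes tested were called, 34.0% as higher and 32.4% as lower, and 71.9% had groups that did not overlap, 35.2% with erastin lower. The sums of the PC3, basal, endothelial and neuroendocrine markers were lower in the same erastin libraries. KRT15 carried most of the basal sum (mean 1.62 FPKM under erastin, 6.15 under DMSO), while TP63 was higher (0.173 against 0.0377). KDR carried most of the endothelial sum (4.17 against 28.9), while VWF was higher near 0. ENO2 carried most of the neuroendocrine sum (8.17 against 24.7), while SYP was called higher (1.46 against 0.28). The part of these markers in the result was not tested. In bulk RNA, fewer cells of a type and less RNA per cell cannot be told apart.

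In LNCaP, the same genes showed small differences. Of the 10, 7 were tested, 1 (PPL) rose and 6 did not pass the test, with a median log2 fold change of 0.30 beside -0.02 for all genes. Over all genes tested in LNCaP, 31.5% were called, 13.8% as higher and 17.7% as lower. The main test did not pair the LNCaP libraries. They were also fitted as pairs by replicate number, although no label says so and some libraries of different numbers correlated too. With the replicate as a block, DSP and PLEC passed as well. That makes 3 higher members beside 50.4% of all genes called, 23.6% as higher. The LNCaP marker sum was lower, and the fibroblast and neuroendocrine sums higher, in the erastin libraries of LNCaP. COL1A1 alone made the fibroblast sum higher (mean 2.65 FPKM under erastin, 1.10 under DMSO). PDGFRB was lower (0.0129 against 0.152), and COL3A1 and LUM had lower means. ENO2 carried most of the neuroendocrine sum (11.7 against 6.71). The part of these markers in the differences was not tested.

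**Figure D1:**
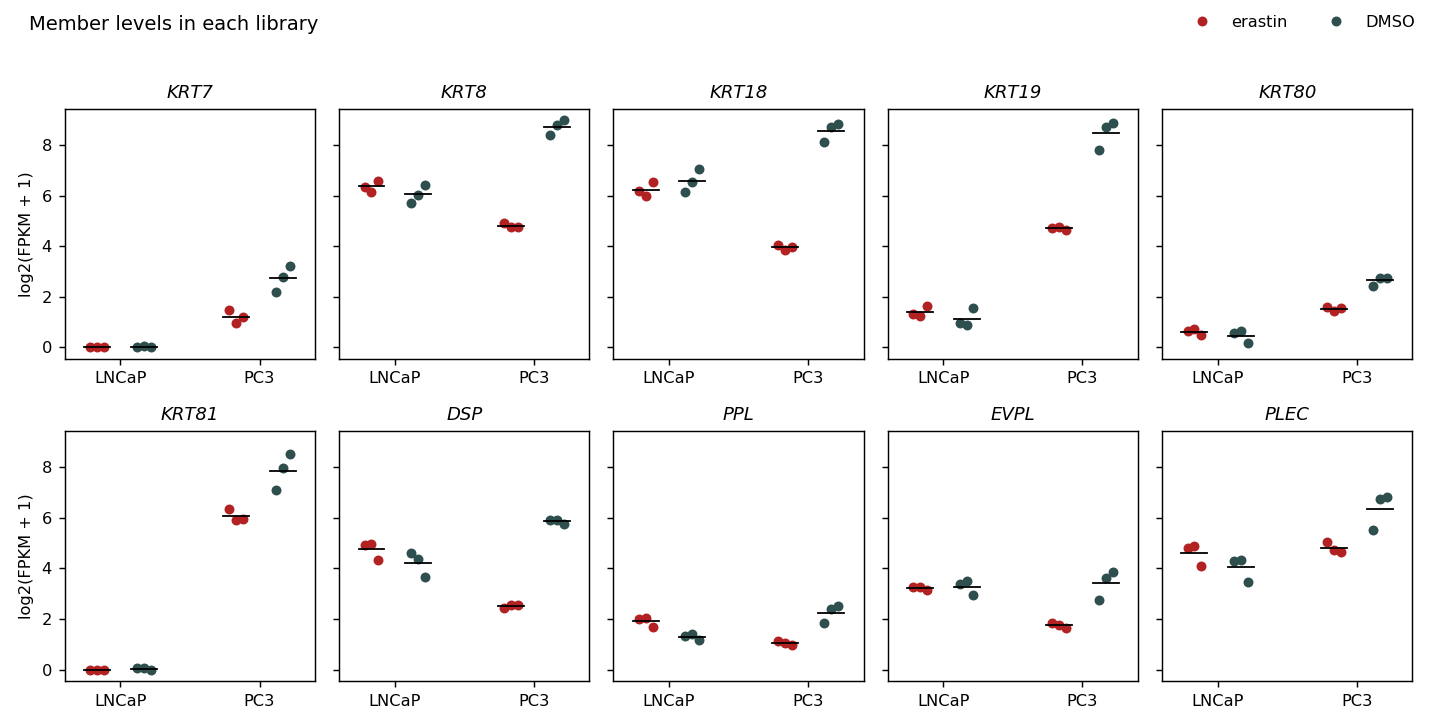
Level of each of the 10 genes on a log2(FPKM + 1) axis, 1 point per library and a line at the group mean, with erastin left of DMSO within each line. In PC3 every erastin point lies below every DMSO point for all 10 genes, and in LNCaP that separation is seen only for PPL, with erastin higher.

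KRT8, the type II chain of the simple epithelial pair (chr12:52897187-52949954, minus strand, hg38), had 29.2, 25.8 and 25.8 FPKM in the erastin libraries labelled PC3, against 337, 443 and 503 FPKM in the DMSO libraries. It was low in all 3 erastin libraries, and the lowest DMSO library was the one that stood apart. KRT8 fell by 3.92 ± 0.17 on the log2 scale (SE, 3 libraries per group; limma, Benjamini-Hochberg adjusted p = 1e-05), a linear level 15.9-fold lower. In LNCaP, KRT8 had 80.4, 70.3 and 94.7 FPKM under erastin, against 51.6, 64.3 and 85.1 FPKM under DMSO. Those groups overlapped, and the log2 difference of 0.30 ± 0.22 did not pass (limma, Benjamini-Hochberg adjusted p = 0.334). It passed under quantile normalization, at 0.59 (limma, Benjamini-Hochberg adjusted p = 0.00296), and under scaling to protein-coding genes, at 0.45 (adjusted p = 0.0177 by the same test).

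KRT18, the type I partner of KRT8 and its neighbour on the chromosome (chr12:52948871-52952906 in the PC3 table, plus strand, hg38), had 15.7, 13.6 and 14.7 FPKM under erastin in the libraries labelled PC3, against 278, 416 and 458 FPKM under DMSO. The erastin libraries lay close together and far below the DMSO libraries. The fall was 26.2-fold on the linear scale and -4.59 ± 0.20 on the log2 scale (limma, Benjamini-Hochberg adjusted p = 1.03e-05). In LNCaP, KRT18 had 70.9, 61.8 and 91.0 FPKM under erastin, against 69.2, 93.0 and 132 FPKM under DMSO. The groups overlapped, with a log2 difference of -0.36 ± 0.27 (limma, Benjamini-Hochberg adjusted p = 0.349).

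KRT19, the type I chain without the tail domain of other keratins (chr17:41523617-41528308, minus strand, hg38), had 25.4, 25.9 and 24.2 FPKM under erastin in the libraries labelled PC3, against 225, 416 and 466 FPKM under DMSO. The log2 fold change was -3.75 ± 0.27 (limma, Benjamini-Hochberg adjusted p = 4.83e-05). LNCaP held little of it: 1.499, 1.39 and 2.10 FPKM under erastin and 0.972, 0.834 and 1.96 FPKM under DMSO, which overlapped (log2 difference 0.26 ± 0.22; limma, Benjamini-Hochberg adjusted p = 0.394).

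The other type II chains fell less steeply in the libraries labelled PC3. KRT81, the hair keratin (chr12:52285913-52291534, minus strand, hg38), had 79.9, 59.3 and 61.1 FPKM under erastin, against 135, 249.6 and 366 FPKM under DMSO, a log2 value of -1.79 ± 0.35 (limma, Benjamini-Hochberg adjusted p = 0.00365). KRT7, a type II chain of simple epithelia (chr12:52232520-52252186, plus strand, hg38), had 1.79, 0.960 and 1.29 FPKM under erastin, against 3.51, 5.97 and 8.38 FPKM under DMSO (log2 fold change -1.52 ± 0.28; limma, Benjamini-Hochberg adjusted p = 0.00278). KRT80, a type II chain found in many epithelia (chr12:52168996-52192014 in the PC3 table, minus strand, hg38), had 2.04, 1.73 and 1.94 FPKM under erastin, against 4.43, 5.76 and 5.67 FPKM under DMSO (log2 fold change -1.11 ± 0.13; limma, Benjamini-Hochberg adjusted p = 0.000397). All 3 were lower in every erastin library than in any DMSO library.

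These 3 chains missed the level filter in LNCaP and were not tested there. KRT7 had no read in the 3 LNCaP erastin libraries and 0, 2 and 1 reads in the DMSO libraries, and KRT81 had no read under erastin and 1, 1 and 0 reads under DMSO, all at or under the 3 reads that a count of 0 allows. KRT80 had 0.588, 0.646 and 0.402 FPKM under erastin and 0.476, 0.564 and 0.136 FPKM under DMSO in LNCaP, with groups that overlapped.

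DSP, the desmosomal plakin (chr6:7541575-7586717 in the LNCaP table, plus strand, hg38), had 4.47, 4.93 and 4.92 FPKM under erastin in the libraries labelled PC3, against 59.5, 58.3 and 52.5 FPKM under DMSO. Both groups were tight, DMSO library 1 included, and DSP fell by 3.32 ± 0.11 on the log2 scale (limma, Benjamini-Hochberg adjusted p = 5.59e-06). In LNCaP, DSP had 29.7, 30.3 and 19.1 FPKM under erastin, against 23.3, 19.5 and 11.7 FPKM under DMSO. Replicate 3 was the lowest of each group, so the groups overlapped although erastin was higher within each replicate number. The log2 difference was 0.54 ± 0.29 (limma, Benjamini-Hochberg adjusted p = 0.199), and with the replicate block its SE was 0.10 and it passed (adjusted p = 0.00787, limma, Benjamini-Hochberg).

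PLEC, the hemidesmosomal linker (chr8:143915147-143976734, minus strand, hg38), had 32.0, 25.3 and 24.0 FPKM under erastin in the libraries labelled PC3, against 45.3, 105 and 112 FPKM under DMSO. DMSO library 1 was the low one of its group, and PLEC fell by 1.56 ± 0.35 on the log2 scale (limma, Benjamini-Hochberg adjusted p = 0.00633). In LNCaP it followed the pattern of DSP, with 27.2, 28.7 and 16.0 FPKM under erastin against 18.6, 19.2 and 10.1 FPKM under DMSO. The LNCaP log2 difference was 0.56 ± 0.31 (limma, Benjamini-Hochberg adjusted p = 0.211), and it passed with the replicate block (adjusted p = 0.00316, limma, Benjamini-Hochberg).

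PPL, the periplakin gene (chr16:4882507-4960741, minus strand, hg38), moved in opposite directions in the lines. It had 3.03, 3.08 and 2.21 FPKM in LNCaP under erastin, against 1.48, 1.68 and 1.22 FPKM under DMSO, a rise of 0.61 ± 0.14 on the log2 scale (limma, Benjamini-Hochberg adjusted p = 0.0189). In LNCaP, 46.5% of all genes tested had groups that did not overlap, 22.2% with erastin higher. The call was lost without LNCaP erastin library 1 (limma, Benjamini-Hochberg adjusted p = 0.0851), without library 2 (adjusted p = 0.0763) and with no filter on low values (adjusted p = 0.0594). In the libraries labelled PC3, PPL had 1.19, 1.06 and 0.984 FPKM under erastin, against 2.60, 4.23 and 4.63 FPKM under DMSO (log2 fold change -1.19 ± 0.19; limma, Benjamini-Hochberg adjusted p = 0.00129).

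EVPL, the envoplakin gene (chr17:76004502-76027452, minus strand, hg38), had 2.56, 2.42 and 2.13 FPKM under erastin in the libraries labelled PC3, against 5.64, 11.4 and 13.6 FPKM under DMSO. It fell by 1.66 ± 0.29 on the log2 scale (limma, Benjamini-Hochberg adjusted p = 0.00208). In LNCaP it had 8.70, 8.51 and 7.80 FPKM under erastin, against 9.35, 10.4 and 6.79 FPKM under DMSO, with a log2 difference of -0.06 ± 0.16 (limma, Benjamini-Hochberg adjusted p = 0.807) whose sign turned with the scaling. Without the DMSO library 1 that stood apart, all 10 genes were still called lower in the libraries labelled PC3: the log2 fold change was -4.08 for KRT8, -4.81 for KRT18, -4.08 for KRT19, -3.29 for DSP, -1.97 for PLEC and -2.00 for EVPL.

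**Figure D2:**
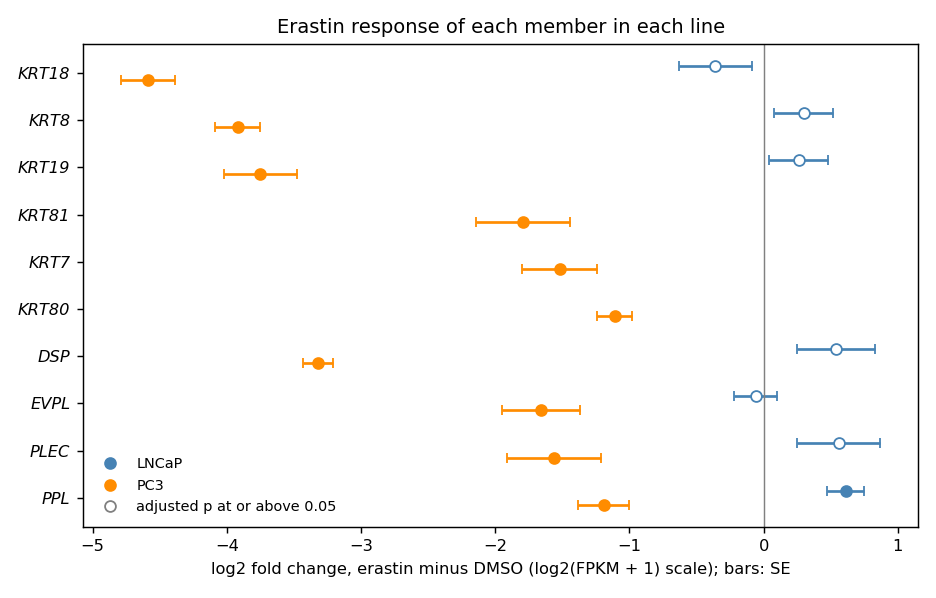
Log2 fold change of each gene, erastin minus DMSO, with its standard error as a bar, in LNCaP and in PC3; open points did not pass the test. The PC3 values run from -4.59 to -1.11, while the 7 LNCaP values lie between -0.36 and 0.61, and KRT7, KRT80 and KRT81 have no LNCaP point because they were not tested there.

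The response differed between the lines for all 7 genes tested in both, beside 44.4% of all genes in the same fit, where 21.4% of genes were called with the higher response in LNCaP and 23.0% with the lower one. The difference (the LNCaP response minus the PC3 response, as a log2 value) was 4.23 ± 0.30 for KRT8 (limma interaction, Benjamini-Hochberg adjusted p = 8.4e-07). It was 4.23 ± 0.36 for KRT18, 4.02 ± 0.36 for KRT19 and 3.86 ± 0.33 for DSP. KRT19 had only 0.834 to 1.96 FPKM in LNCaP under DMSO, so a fall as large as that in PC3 could not have been measured there. Part of its difference was fixed by that low level. The other plakins differed less, by 2.12 ± 0.49 for PLEC, 1.8 ± 0.24 for PPL and 1.60 ± 0.34 for EVPL, with the largest Benjamini-Hochberg adjusted p among the 7 at 0.00434 for PLEC (limma).

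The order of the levels also differed, given here within each table. In the libraries labelled PC3 under erastin, KRT81 stood first at 66.8 ± 11.4 FPKM (SD, n = 3), above PLEC, KRT8 and KRT19, whose ranges overlapped with their neighbours in that order, and then KRT18. Under DMSO the order was KRT8, KRT18, KRT19 and KRT81, at 428, 384, 369 and 250.1 FPKM on average, with neighbouring ranges that overlapped. In LNCaP under erastin KRT8 and KRT18 came first with overlapping ranges, followed by DSP and PLEC, and under DMSO KRT18 came before KRT8, again with overlapping ranges.

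The makeup of the keratin pool followed from these levels. KRT81 held 44.2%, 39.3% and 39.9% of the summed FPKM of all protein-coding keratins in the PC3 erastin libraries, against 12.5%, 14.9% and 18.7% in the DMSO libraries. KRT18 held 8.67%, 8.97% and 9.62% under erastin, against 25.9%, 24.9% and 23.4% under DMSO. The larger share of KRT81 arose while its own level fell. The 6 keratins together held 84.2% to 85.2% under erastin and 91.6% to 92.2% under DMSO in that line. In LNCaP they held 88.4% to 89.5% under erastin and 89.7% to 91.5% under DMSO, of which KRT8 was 44.5% to 46.9% under erastin and 35.5% to 37.8% under DMSO.

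The balance of the KRT8 and KRT18 pair moved the same way in both lines. The ratio of KRT18 to KRT8 FPKM within a library, which no scaling of libraries can alter, was 0.883, 0.879 and 0.961 in LNCaP under erastin, against 1.34, 1.45 and 1.55 under DMSO. It was 0.537, 0.525 and 0.570 under erastin in the libraries labelled PC3, against 0.825, 0.941 and 0.910 under DMSO. The ratio was lower in every erastin library of both lines, by a log2 difference of -0.67 in LNCaP and -0.71 in PC3. The two-sided exact permutation test gave p = 0.1 in each line, the smallest p that 3 against 3 allows, so no call can be made. The annotated exons of KRT8 and KRT18 share 525 bases on opposite strands, 7.63% of the KRT8 exonic bases and 16.3% of those of KRT18, and no source used here gives the strand setting of the counting, which leaves reads there without a sure gene.

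Summed over the 6 keratins, the type I to type II ratio was 0.895, 0.890 and 0.979 in LNCaP under erastin, against 1.35, 1.45 and 1.58 under DMSO (log2 difference -0.66). In the libraries labelled PC3 it was 0.364, 0.449 and 0.432 under erastin, against 1.05, 1.18 and 1.05 under DMSO (log2 difference -1.40). Erastin libraries were lower without overlap in both lines, again at the exact permutation floor of p = 0.1. The summed FPKM of the keratins was 153, 134 and 188 in LNCaP under erastin and 122, 159 and 220 under DMSO, which overlapped (log2 difference -0.05, exact permutation p = 0.9). The summed plakins overlapped in LNCaP as well, at 68.7, 70.6 and 45.1 FPKM under erastin and 52.8, 50.7 and 29.8 FPKM under DMSO (log2 difference 0.48, exact permutation p = 0.3). In the libraries labelled PC3 the keratin sum was 154, 127 and 129 FPKM under erastin, against 983, 1536 and 1808 FPKM under DMSO, and the plakin sum was 40.2, 33.7 and 32.0 FPKM under erastin, against 113, 179 and 182 FPKM under DMSO.

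**Figure D3:**
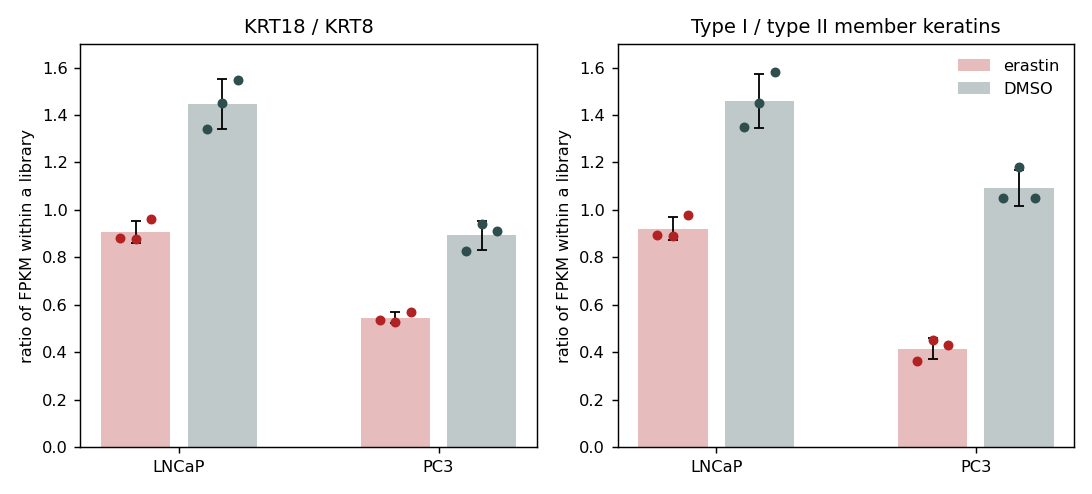
Ratio of FPKM within each library for KRT18 over KRT8 and for the type I over the type II chains among the 6 keratins; bars are means, error bars are SD over 3 libraries, points are libraries, and erastin stands left of DMSO. The KRT18 to KRT8 ratio is 0.879 to 0.961 in LNCaP erastin libraries and 0.525 to 0.570 in PC3 erastin libraries, below the DMSO libraries of the same line in both cases.

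Processed pseudogenes of KRT8 can share reads with their parent, and no source used here says how reads that match several genes were counted. Both tables list 50 KRT8 pseudogenes. Their summed reads equalled 27.9%, 31.8% and 27.5% of the KRT8 reads in the PC3 erastin libraries, against 0.621%, 0.716% and 0.652% in the DMSO libraries, and the reads themselves numbered 774, 808 and 788 under erastin, against 201, 315 and 318 under DMSO. Pseudogene reads were more numerous in the libraries where KRT8 was low. Of the 5 KRT8 pseudogenes tested in that line, 4 rose and 1, KRT8P3, fell, beside 34.0% of all genes called higher and 32.4% lower. In LNCaP the share was 1.88% to 2.99% under erastin and 2.61% to 3.5% under DMSO. The 67 KRT18 pseudogenes summed to 124, 158 and 144 reads under erastin in the libraries labelled PC3, against 14, 16 and 21 reads under DMSO.

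KRT8P12 and KRT8P46 each reached at least 5% of the KRT8 reads in a group. KRT8P12 (chr3:160565447-160569248, plus strand, hg38) had 263, 315 and 307 reads in the PC3 erastin libraries, against 130, 181 and 157 in the DMSO libraries, which is 0.76 ± 0.14 on the log2 scale (limma, Benjamini-Hochberg adjusted p = 0.00253). KRT8P46 (chr4:102728746-102730171, minus strand, hg38) had 253, 243 and 242 reads under erastin, against 14, 14 and 12 under DMSO, which is 2.94 ± 0.12 on the log2 scale (limma, Benjamini-Hochberg adjusted p = 9.4e-06). It lies within MANBA, the beta-mannosidase gene, on the same strand, and MANBA rose by 0.93 in that line (limma, Benjamini-Hochberg adjusted p = 0.000887). A processed pseudogene annotated over it on the same strand, LRRC37A15P, rose by 1.69 (limma, Benjamini-Hochberg adjusted p = 0.000123). KRT8P39 lies within NUP107 and KRT8P33 within CEP120, on the same strand. Neither gene passed in that line, at -0.5 and 0.18 (limma, Benjamini-Hochberg adjusted p = 0.0537 and 0.439). KRT8P3 lies within ASPH on the opposite strand, and ASPH fell by 1.56 (adjusted p = 0.000414 by the same test). The part of these genes in the pseudogene reads was not tested. Over the aligned coding sequence, KRT8P12 was 90.6% and KRT8P46 91.7% identical to KRT8, while KRT7, the most similar of the 3 other type II members, was 75.0% identical. KRT8P33 was 95.8% identical.

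**Figure D4:**
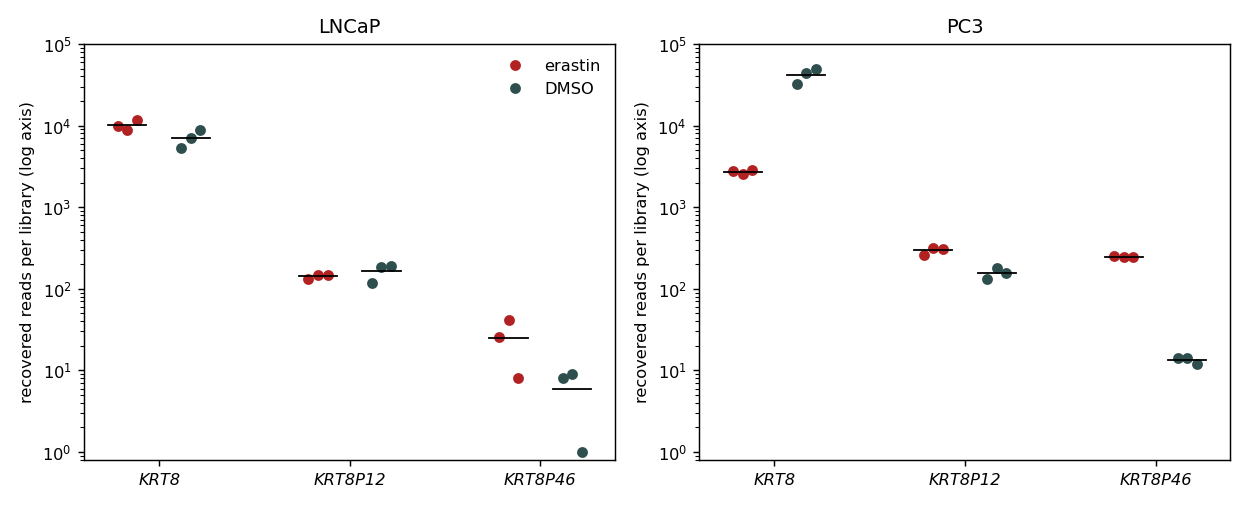
Recovered reads per library on a log axis for KRT8, KRT8P12 and KRT8P46, 1 point per library and a line at the mean, with erastin left of DMSO. In PC3 the KRT8 points drop under erastin while KRT8P46 has 242 to 253 reads under erastin against 12 to 14 under DMSO; in LNCaP the groups overlap for all 3 genes.

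KRT81 has a closely similar neighbour, the hair keratin gene KRT86, whose span covers KRT81 on the opposite strand without shared exonic bases. The coding sequences were 93.8% identical over the aligned bases, so the values of the pair are uncertain to the extent that reads were split between them. For the libraries labelled PC3, KRT86 was matched by gene identifier to an entry that carries the symbol AC021066.1. It had 1.11 ± 0.579 FPKM under erastin and 5.87 ± 2.91 FPKM under DMSO there (SD, n = 3 each), a small part of the level of KRT81.

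The promoter of DSP is shown because DSP had a RefSeq promoter entry, which only KRT8 among the other members also had. The entry of KRT8 lies at another start. DSP was also the plakin with the steepest fall. The sequence runs for 154 bases up to the first GENCODE v29 start, which lies 96 bases before the RefSeq start (RefSeq, GRCh38.p14, chr6:7541421-7541574, plus strand), and capitals mark the GC box of SP and KLF factors, GGGCGG on either strand, overlapping hits included.
DSP promoter: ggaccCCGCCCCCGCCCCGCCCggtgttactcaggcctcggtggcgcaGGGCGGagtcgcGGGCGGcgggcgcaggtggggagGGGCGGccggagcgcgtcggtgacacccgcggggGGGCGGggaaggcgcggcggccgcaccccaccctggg
The window held 7 GC boxes, and 26.5% of 35116 promoter windows of the same length held at least 1. The share with 7 was not counted, so the 26.5% does not rank the count of DSP. Each of these windows was the first 154 bases of a RefSeq promoter entry, not matched for base content. The letters TGANTCA of AP-1 were in 3.9% of such windows, TGACNNNGC of the antioxidant response element in 6.01%, CCGGAAG of ETS factors in 3.33% and AACCGGTT of grainyhead factors in 0.0826%, on both strands, and none of them was in the DSP window.

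Among the other keratins, 49 protein-coding genes were listed and most were too low to test. Of 10 tested in the libraries labelled PC3, 9 fell and none rose, beside 32.4% of all genes called lower and 34.0% higher. Their median log2 fold change was -1.61, and 5 of the 10 had every erastin library below 1 FPKM and so entered the test through DMSO alone. KRT20, a keratin of gut and urothelium, had 0.378 ± 0.0451 FPKM under erastin and 15.4 ± 0.363 FPKM under DMSO (SD, n = 3 each; log2 fold change -3.58). KRT75, a hair follicle keratin, had 3.97 ± 0.264 FPKM under erastin and 55.9 ± 17.5 FPKM under DMSO, and KRT6A, a keratin of stressed epidermis, had 0.371 ± 0.141 FPKM under erastin and 11.6 ± 1.73 FPKM under DMSO. KRT10 was the one that did not pass. In LNCaP, 2 were tested and neither passed. Of the other plakins, MACF1, a linker of actin and microtubules, fell by 0.78 in the libraries labelled PC3, and DST, with a log2 difference of 0.33, did not pass there but did without DMSO library 1, and neither plakin tested in LNCaP, MACF1 or EPPK1, passed, although EPPK1 was called lower with the replicate block.

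Of the partners of DSP in the desmosome, 11 of 11 tested were called lower in the libraries labelled PC3, beside 32.4% of all genes tested there. Their median log2 fold change was -1.85. Of the 11, 3 had every erastin library below 1 FPKM and so entered the test through DMSO alone. DSG3, a desmosomal cadherin, had 0.703 ± 0.182 FPKM under erastin and 36.4 ± 9.96 FPKM under DMSO (SD, n = 3 each), a log2 fold change of -4.43. DSC2, another desmosomal cadherin, fell by 2.68, and the plaque protein PKP3 had a log2 fold change of -2.4. The smallest falls were those of the plaque genes PKP1, at -0.53, and PKP4, at -0.40, and 9 of 11 were called, without these, when any 1 of the erastin libraries or DMSO library 2 was left out and under scaling to protein-coding genes. Without DMSO library 3, PKP1 alone was lost. In LNCaP, 1 of 7 rose, 1 fell and 5 did not pass, beside 13.8% of all genes called higher and 17.7% lower. PKP2, a plaque protein, had a log2 fold change of 0.43 and DSC2 one of -0.64. Without erastin library 1, erastin library 2 or DMSO library 2, PKP2 no longer passed, which leaves 1 call, and scaling to protein-coding genes lost that of DSC2. With the replicate block PKP4 was called as well, which makes 1 higher and 2 lower, beside 50.4% of all genes called with the block. Of 7 hemidesmosome genes, 5 fell and none rose in the libraries labelled PC3, beside the same 32.4% called lower, and 1 of the 7 had every erastin library below 1 FPKM. ITGB4, the integrin chain that binds PLEC, had 9.94 ± 1.05 FPKM under erastin and 83.7 ± 31.4 FPKM under DMSO, a log2 fold change of -2.88, beside -2.24 for COL17A1 and -1.72 for ITGA6. In LNCaP, 4 of them were tested, LAMB3, a laminin chain with every DMSO library below 1 FPKM, rose by 1.07 and CD151, a tetraspanin, fell by 0.66. The call of CD151 was lost without any 1 of the erastin libraries and without DMSO library 2 or 3, which leaves 1 call, and with the replicate block LAMA3, a laminin chain, was called too, which makes 2 higher and 1 lower.

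Other intermediate filament genes were mixed. Of 9 tested in the libraries labelled PC3, 6 fell and 1 rose, with a median log2 fold change of -0.80. Over all genes tested there, 32.4% were called lower and 34.0% higher. The mesenchymal filament gene VIM had 14.4 ± 0.995 FPKM under erastin and 46.2 ± 1.87 FPKM under DMSO (SD, n = 3 each), a log2 fold change of -1.62, so VIM fell together with the keratins. NES fell by 1.52, and the lamin gene LMNB1 fell by 1.24. Of the 9, 1 had every erastin library below 1 FPKM. The count called was 7, and 4 without any 1 of the erastin libraries, of DMSO library 2 or of DMSO library 3. In LNCaP, 2 of 6 fell and 1 rose, beside 17.7% of all genes called lower and 13.8% higher. LMNB1 had 8.88 ± 1.15 FPKM under erastin and 69.4 ± 6.29 FPKM under DMSO (log2 fold change -2.84). LMNB2 had a log2 fold change of -1.5, and SYNM, the synemin gene, rose by 0.62. With the replicate block all 6 were called, 3 higher and 3 lower, with LMNA, VIM and NEFL added, beside 50.4% of all genes called with the block. Of 4 cornified envelope genes tested in the libraries labelled PC3, 2 fell (SPRR1A, -1.43, and SPRR1B, -1.51) and 1 rose (CSTA, 1.29). Of the 4, 3 had all libraries of a group below 1 FPKM. These calls rest on few reads. SPRR1A had 1, 3 and 0 reads under erastin against 5, 18 and 9 under DMSO, and SPRR1B had 1, 0 and 0 against 19, 12 and 21. CSTA had 31, 30 and 34 reads under erastin against 0, 1 and 2 under DMSO. The 1 cornified envelope gene tested in LNCaP did not pass.

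**Figure D5:**
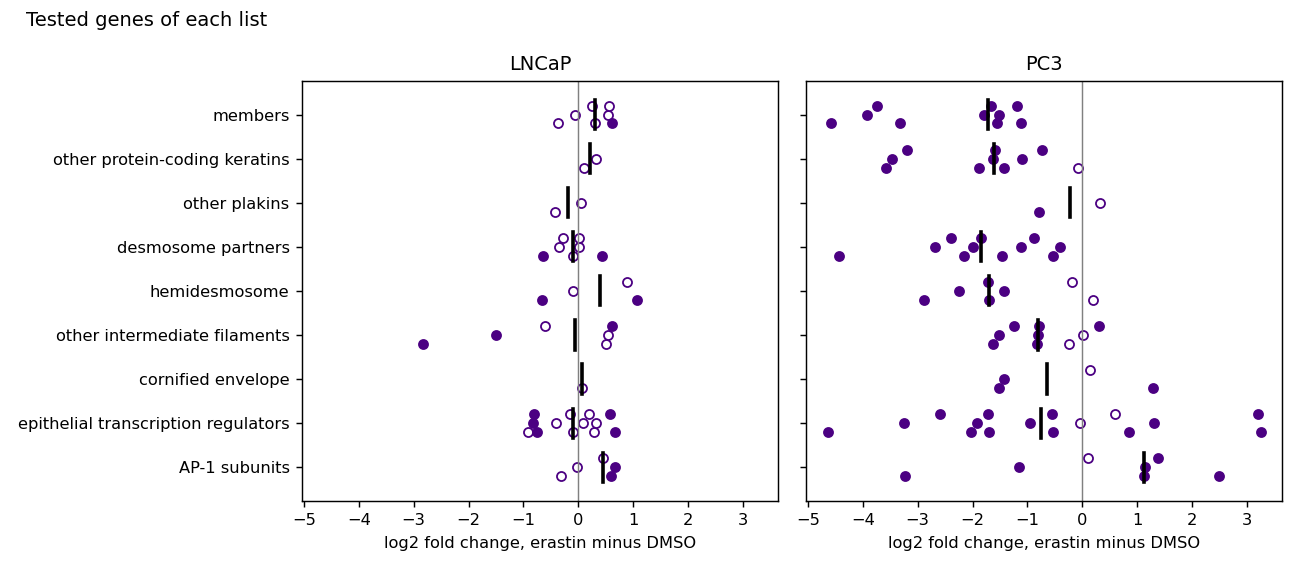
Log2 fold change, erastin minus DMSO, of each tested gene by list in LNCaP and in PC3; filled points passed the test, open points did not, and the upright line is the list's median. In PC3 the desmosome genes all lie below 0 with a median of -1.85, while the LNCaP lists have medians between -0.18 and 0.45.

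Regulators known to act on epithelial genes moved in both directions. Of 16 tested in the libraries labelled PC3, 10 fell and 4 rose, 5 of the 16 having every erastin library below 1 FPKM. The shares over all genes tested there were 32.4% lower and 34.0% higher. OVOL1, an epithelial zinc finger factor, was not called when any 1 of the erastin libraries or DMSO library 2 or 3 was left out, which leaves 9 falls. EHF, an epithelial ETS factor, had 0.681 ± 0.0950 FPKM under erastin and 42.0 ± 13.0 FPKM under DMSO (SD, n = 3 each), a log2 fold change of -4.64, and ELF3, of the same family, fell by 3.25. SNAI2, a repressor of epithelial genes, had 24.9 ± 1.49 FPKM under erastin and 1.72 ± 0.348 FPKM under DMSO, a log2 fold change of 3.26. In LNCaP, 2 of 13 rose and 3 fell, beside 13.8% of all genes called higher and 17.7% lower. The log2 fold changes of those that fell were -0.83 for ESRP1, an epithelial splicing factor, -0.81 for KLF4, a zinc finger factor, and -0.75 for SNAI2, whose erastin libraries were all below 1 FPKM. Without erastin library 1 or 2, TFAP2C was no longer called and 1 rise was left. With the replicate block 3 rose and 4 fell, with EHF and GRHL2 added, beside 50.4% of all genes called with the block. Among AP-1 subunits, 4 of 7 rose and 2 fell in the libraries labelled PC3. Of the falls, that of JUND, at -1.16 with groups that overlapped (limma, Benjamini-Hochberg adjusted p = 0.0441), was lost without any 1 of the erastin libraries, without DMSO library 2 or 3 and under scaling to protein-coding genes, which leaves 1. FOSL1 had 30.2 ± 2.28 FPKM under erastin and 304 ± 91.0 FPKM under DMSO, a log2 fold change of -3.24, while JUNB rose by 2.49 and JUN by 1.38. In LNCaP, 2 of 5 rose, FOS by 0.67 and JUN by 0.60, and none fell. FOS had every DMSO library below 1 FPKM. Neither was called without erastin library 1 or without erastin library 2, and FOS was not called without erastin library 3 or DMSO library 1. With the replicate block 3 of the 5 rose, FOSL2 added, beside 23.6% of all genes called higher with the block. No called gene of these lists turned its sign under any of the scalings tried.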

How the data were processed

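RNA was extracted with TRIzol and made into libraries with an Illumina TruSeq RNA kit, per the labels' protocols. HISAT2 version 2.0.5 and build hg38 are listed in the submitters' processing notes, and the sources used here name no counting tool. The authors deposited FPKM values and gene lengths in 1 table per line; the tables hold 58735 and 61221 genes of different annotation releases, so levels were not tested between lines. FPKM times length came out as whole reads for 100% of nonzero values (tolerance 0.1 reads), and these recovered reads are the depth.

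Groups came from the labels. Values were fitted as log2(FPKM + 1) in limma (version 3.58.1, under R 4.3.3; variance trend, two-sided, Benjamini-Hochberg over all genes kept, threshold 0.05) for genes that reached 1 FPKM in 3 or more of 6 libraries: 13683 in LNCaP and 15371 in PC3. The interaction used all 12 libraries and 11823 genes kept in both. Ratios and sums were compared with an exact permutation test over libraries. The fits were also run on simulated counts. These gave every gene the same spread setting and held no library that stood apart, so they do not show how the fits perform on these libraries.

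The members and lists were chosen with earlier results of these data known. Named genes were all members and up to 3 called genes with the largest change per list and line. Pseudogenes or overlapping genes with at least 5% of a member's reads were named too, as were 5 genes most like KRT8 and KRT18. Genes named for calls lost or added under another setting, LRRC37A15P, NUP107, CEP120, ASPH, and single markers given beside their list sums were chosen after their values were seen. Replicate numbers come from the titles. In LNCaP, deviations of same-numbered libraries from their group means correlated at 0.254, 0.347 and 0.744. These are above 0.1 in every pair. The main fit had no replicate block, and the fit with the block was given beside it by that rule. Libraries of different numbers met it too, erastin 1 with DMSO 2 at 0.195 and erastin 2 with DMSO 1 at 0.612. The rule therefore does not establish the pairing. No replicates agreed within sampling noise (lowest chi-square per degree of freedom 3.39).

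Alternatives covered the pseudocount, the filter, scaling, limma voom on recovered reads, the replicate block and leaving out single libraries. Chosen after seeing the data were correction for gene length, with and without the block, and fits without the third replicates of LNCaP. Identities of GENCODE v29 coding sequences were computed with Biopython version 1.88, and plots drawn with matplotlib version 3.10.9. The DSP promoter sequence came from RefSeq GRCh38.p14. Some marker genes and coding sequences are not reported here. DSP and KRT8 had RefSeq promoter entries; the entry of KRT8 lies at another start and was not printed.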

Additional observations from a re-analysis of the deposited data

Results flagged for a closer look

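For the 7 genes tested in both lines, the erastin response differed between LNCaP and the libraries labelled PC3 by the limma interaction. The LNCaP response minus the PC3 response, as a log2 value, was 4.23 for KRT8, 4.23 for KRT18, 4.02 for KRT19, 3.86 for DSP, 2.12 for PLEC, 1.8 for PPL and 1.60 for EVPL. KRT19 was too low in LNCaP to show a fall as large as that in PC3, so part of its difference was fixed by that level. The lines come from separately annotated tables, and the libraries labelled PC3 express CTNNA1, and the part of either in these differences was not tested.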

How the results depend on the processing

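In the libraries labelled PC3, all 174 alternative member fold changes kept their direction and stayed past the threshold, as did all 138 of the interaction. The count of genes called in PC3 was 5240 with a mean of at least 5 FPKM, which tests fewer genes, beside 10214. It was 9068 with the replicate block. Same-numbered libraries of PC3 correlated at -0.38, -0.0135 and -0.311, and 3 libraries per group cannot settle whether the numbers pair those samples. The interaction called 9719 genes with no filter and 2476 with a mean of at least 5 FPKM, beside 5248.

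LNCaP calls depended on the setting. Beside 1 member called, the count was 0 with no filter, 0 with a mean of at least 5 FPKM, 2 with quantile normalization, 2 with protein-coding scaling, 3 with the replicate block, 4 with the gene length trend removed and the replicate block, 3 without replicate 3 of both groups (the last pair of settings chosen after seeing the data), and 0 to 1 with each library left out. Genes called in LNCaP, beside 4312, numbered 2572 with a mean of at least 5 FPKM, 6893 with the replicate block, 7337 with the length trend removed and the block, and 2225 to 4209 with each library left out, the lowest without erastin library 1, with 2588 without erastin library 2 and 2721 without DMSO library 2. The log2 difference of EVPL in LNCaP turned to 0.07 with protein-coding scaling and ran from -0.22 to 0.06 with each library left out, above 0 only without DMSO library 2. Beyond the calls given in the report, the replicate block changed no member's call; in PC3 it lost PKP1, PKP4, LMNA, LMNB2, SYNM and OVOL1 among the listed genes. The cause was not tested.

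Scaling to protein-coding genes moved the median log2 fold change of all genes to 0.10 in LNCaP and 0.20 in PC3, and the higher share of calls to 54.0% beside 43.9% in LNCaP and to 60.8% beside 51.2% in PC3. Depth limits KRT7 and KRT81 in LNCaP, where no library had more than 2 reads.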

Other observations

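The genes whose centred levels followed the mean of KRT8 and KRT18 most closely over the 12 libraries, among 10103 compared, were CKAP4 (Pearson r 0.997), BSPRY (0.996), TMBIM1 (0.995), AP1M2 (0.995) and GSR (0.995). These points share the same libraries and the same contrast, so the values are a description. Their log2 fold changes in the libraries labelled PC3 ran from -2.82 for BSPRY to -1.36 for GSR, and in LNCaP from 0.04 for GSR to 0.14 for CKAP4. Among the members, r was 0.991 for KRT19, 0.925 for DSP, 0.911 for EVPL, 0.829 for PPL and 0.756 for PLEC.

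Reads of genes that overlap PPL and EVPL on the other strand were set against PPL and EVPL reads, which themselves fell. PPL had 126, 117 and 122 reads under erastin in the libraries labelled PC3, against 279, 470 and 502 under DMSO. EVPL had 266, 260 and 257 reads under erastin there, against 591, 1236 and 1433 under DMSO. A larger share can therefore arise without more reads of the overlapping gene. SEC14L5 reads equalled 19.7% of PPL reads under erastin and 0.48% under DMSO in the libraries labelled PC3. CDK3 reads equalled 6.9% of EVPL reads under erastin and 1.17% under DMSO there, and TEN1-CDK3 reads 5.36% under erastin and 1.87% under DMSO. In GENCODE v29 these genes share 0 exonic bases with PPL or EVPL, so the overlap lies in the gene spans. KRT86, which overlaps the span of KRT7 on the same strand, had 48.9% as many reads as KRT7 under erastin and 59.9% under DMSO in the libraries labelled PC3, where its entry carries the symbol AC021066.1.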
